A study of Mus musculus with 18 samples.

Results

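The tripartite motif (TRIM) gene family was followed through 164 accessible regions at 53 genes, out of 53796 regions in all. A region was taken as a TRIM region when its nearest protein-coding gene within 50 kb had a symbol made of Trim and a number. The reference held 68 such genes, and no region was assigned to 15 of them, Trim10, Trim15, Trim30b, Trim34b, Trim38, Trim40, Trim42, Trim43b, Trim50, Trim54, Trim58, Trim60, Trim61, Trim75 and Trim80. By position, 58 TRIM regions were inside their gene, 54 were between genes and 52 were at a gene end, at most 1 kb away from it. The nearest gene need not be the one that a region controls.

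Most TRIM proteins carry a RING domain, which gives many of them ubiquitin ligase activity. B-box and coiled-coil domains follow, and a variable end picks the target. Many are induced by interferon and act in cells as antiviral restriction factors or as regulators of the sensors of viral nucleic acid, and in macrophages they also tune Toll-like receptor signalling. Others serve in chromatin, muscle or the nervous system. Interferon acts on its target genes largely through the interferon-stimulated response element, a short DNA motif bound by transcription factors that interferon signalling activates.

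The cells were bone marrow-derived macrophages (BMDMs) of wildtype C57BL/6 mice aged 6 to 12 weeks, grown with M-CSF, the macrophage growth factor, at 20 ng/mL. They were given medium, CpG or polyI:C for 4 h, the medium was then replaced, and a second treatment followed for another 4 h. Open chromatin was read by ATAC-seq, in which a transposase cuts and tags accessible DNA, in 18 libraries. Group names give the first and then the second treatment: CL (CpG then LPS), PL (polyI:C then LPS), CT (CpG then TNF), PT (polyI:C then TNF), MP (medium then polyI:C), MC (medium then CpG), ML (medium then LPS), MT (medium then TNF) and MM (medium then medium). CpG, a DNA ligand of Toll-like receptor 9, was used at 100 nM, and LPS, the bacterial ligand of Toll-like receptor 4, at 1 ng/mL. PolyI:C, a mimic of viral double-stranded RNA, was used at 1 µg/mL, and the cytokine TNF at 10 ng/mL.

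Values are log2 CPM, which are read counts scaled to the total of their library and put on a log2 scale, and each group had 2 libraries with 3141641 to 5986835 reads in regions. The MP libraries differed from each other by no more than the sampling noise of their reads allows, with a chi-square of 1.003 per region (p = 0.2846) where noise alone gives about 1, and were averaged and counted as 1 sample. In the remaining 8 groups this chi-square lay between 1.069 (ML) and 2.714 (PT). Differences are log2 CPM ± SE from limma, called at an adjusted p under 0.05 over all regions, with n = 2 libraries a group and n = 1 for MP. No separate animals or cultures are named for the replicates, so p-values measure only the spread between libraries. That spread was pooled over the groups in 1 fit, and MP, as 1 sample, added nothing to it. In bulk nuclei, a region open in more cells and one more open in each cell cannot be told apart. All 8 macrophage markers had a region within 1 kb of a gene end, while none of 4 T and NK cell markers and none of 3 fibroblast markers did. Regions were found at 2 of 4 neutrophil, 1 of 4 B cell, 1 of 3 dendritic cell and 2 of 3 erythroid markers.

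The starts of the antiviral TRIM genes are shown because they carry the letters of the response element and each lies within a measured region. The element was searched as GAAA, any 2 bases and GAAA again, on both strands of the 300 bases around each annotated start, 250 before and 50 after (RefSeq, GRCm38.p6). It was present in 9 of the 15 promoters of the antiviral and interferon-inducible TRIM genes (60%), in 1 of the 52 promoters of the other TRIM genes (1.92%) and in 3.44% of all 32851 promoters. Capitals mark the matches, which overlap each other in Trim26 and Trim21. Matches that begin with TTTC are the same element read on the other strand. Stretches run 5′ to 3′ on the strand of the gene from base -100 to base 30 relative to the start, and for Trim26 from -180 to -81.
Trim26, chr17:36836966-36837065, + strand: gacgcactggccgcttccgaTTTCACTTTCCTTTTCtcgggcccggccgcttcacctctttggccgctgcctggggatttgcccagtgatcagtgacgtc
Trim21, chr7:102565453-102565582, - strand: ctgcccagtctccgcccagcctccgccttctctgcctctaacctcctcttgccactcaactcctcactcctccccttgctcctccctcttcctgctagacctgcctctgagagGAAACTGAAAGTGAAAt
Trim34a, chr7:104244357-104244486, + strand: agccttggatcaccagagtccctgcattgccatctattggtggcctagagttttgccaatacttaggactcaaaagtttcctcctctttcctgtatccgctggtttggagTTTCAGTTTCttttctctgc
Trim5, chr7:104288077-104288206, - strand: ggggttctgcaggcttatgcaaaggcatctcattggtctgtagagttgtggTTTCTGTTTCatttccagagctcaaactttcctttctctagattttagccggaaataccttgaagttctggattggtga
Trim12a, chr7:104315466-104315595, - strand: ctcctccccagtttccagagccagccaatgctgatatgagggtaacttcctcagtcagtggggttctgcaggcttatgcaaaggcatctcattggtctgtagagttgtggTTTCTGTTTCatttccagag
Trim12c, chr7:104353320-104353449, - strand: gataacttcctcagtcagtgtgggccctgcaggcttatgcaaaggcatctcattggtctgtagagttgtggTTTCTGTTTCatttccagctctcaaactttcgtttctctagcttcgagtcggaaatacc
Trim30a, inner start, chr7:104446096-104446225, - strand: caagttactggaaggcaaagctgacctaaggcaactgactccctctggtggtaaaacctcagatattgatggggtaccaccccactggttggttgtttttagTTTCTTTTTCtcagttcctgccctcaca
Trim30a, outer start, chr7:104465164-104465293, - strand: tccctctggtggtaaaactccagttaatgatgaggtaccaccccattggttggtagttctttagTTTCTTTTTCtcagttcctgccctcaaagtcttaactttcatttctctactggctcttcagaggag
Trim30d, chr7:104507820-104507949, - strand: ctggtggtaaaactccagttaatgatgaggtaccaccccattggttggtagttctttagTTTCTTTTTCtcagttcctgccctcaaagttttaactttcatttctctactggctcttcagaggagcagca

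The lines also show how close the copies in the chromosome 7 cluster are. Over 241 aligned bases the Trim5 and Trim12a promoters were 100% identical, and over 295 bases the outer Trim30a and the Trim30d promoters were 93.6% identical. How the authors treated reads that match several places is not given in the sources used here, so the split of reads between these copies is uncertain. Other motifs were searched in the same windows. The NF-kB letters, GGGA, any base, TT, any base and CC, occurred in 1.2% of all promoters and in 1 TRIM promoter, that of Trim26, within the stretch shown. The AP-1 letters TGANTCA occurred in 10 of 67 TRIM promoters (14.9%) and 7.81% of all, and the PU.1 letters GAGGAAGT in 5 of 67 (7.46%) and 3.2% of all. A match is a description of these letters and not a measured binding site.

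PolyI:C alone raised chromatin at the antiviral genes more widely than at the rest of the family. Among the 40 regions of the 13 antiviral and interferon-inducible genes, 20 were higher and 1 was lower in MP than in MM, with a median difference of 0.66, where 14.3% of all regions were higher and 8.28% lower with a median of -0.01. Of the 20 higher, 6 were at Trim30a, 3 at Trim12a, 2 each at Trim30c and Trim5 and 1 each at Trim12c and Trim34a. These genes share the chromosome 7 cluster, where neighbouring regions are not separate loci. Outside it Trim25 had 2, and Trim14, Trim21 and Trim56 had 1 each. Of the 124 regions of the other 40 TRIM genes, 13 were higher and 8 lower. CpG alone raised 18 of the 40 antiviral regions and lowered none by limma (1 at an unadjusted p under 0.05 and 1 by voom on recovered reads), with a median of 0.43, against 17.2% of all regions higher and 8.79% lower. With LPS alone 6 rose and 1 fell (all regions, 15% and 9.55%) and with TNF alone 2 rose (all regions, 5.79% higher), with medians of 0.03 and -0.06. In either direction limma called 22.5% of all regions in MP, 26% in MC, 24.5% in ML and 6.36% in MT, and 0.573% of all regions were lower in MT. Thus the antiviral counts in ML and MT were near the background of all regions, and those in MP and MC above it.

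Counts with 1 library left out moved most for LPS and TNF. The LPS count of 7 became 2 without ML replicate 1 and 4 without MM replicate 2. The TNF count of 2 became 0 when MM replicate 1 or MT replicate 1 was left out and 1 when MT replicate 2 was. For CpG the count of 18 became 11 without MC replicate 1, and for polyI:C the 21 antiviral calls ranged from 16 to 22.

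**Figure D1:**
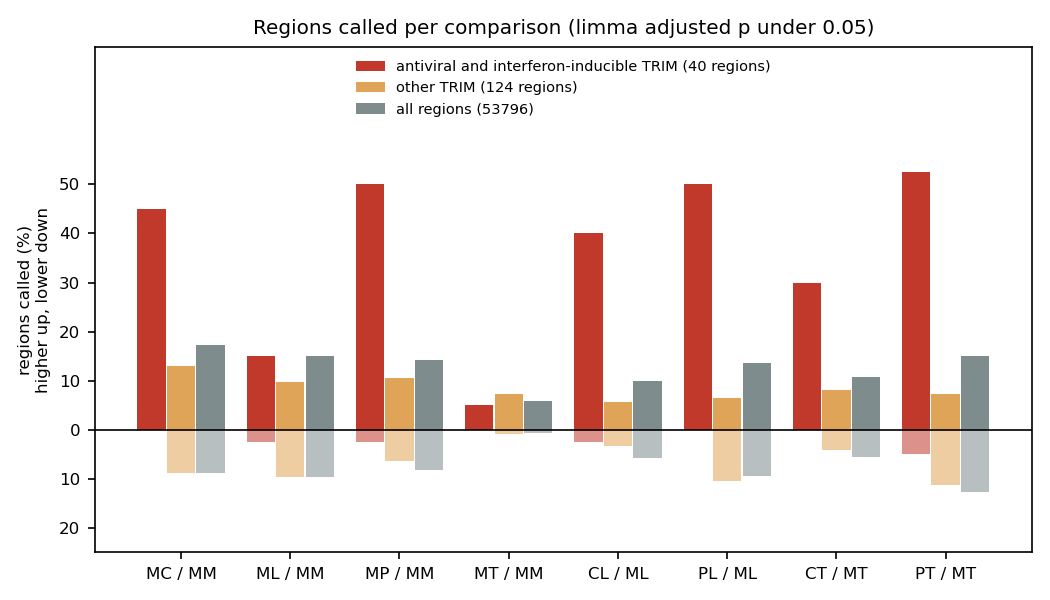
Share of regions called higher (bars up) and lower (paler bars down) in each comparison, in percent, for the 40 antiviral and interferon-inducible TRIM regions, the other 124 TRIM regions and all 53796 regions. The antiviral bars for higher regions reach 50% in MP over MM and 52.5% in PT over MT, against 14.3% and 15% of all regions, while in MT over MM they stand at 5% against 5.79%.

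Trim30a, whose protein dampens Toll-like receptor signalling in mouse macrophages by driving loss of the adaptors TAB2 and TAB3, held the most variable region of the family. That region (chr7:104463874-104464375) lies 1069 bases inside the outer start and ranked 270 among all regions by the F statistic over the 9 groups. It measured 4.86 and 4.73 log2 CPM in the MP libraries, 4.26 and 4.30 in MC, 3.22 and 3.11 in ML and 2.10 and 2.04 in MT, against 2.27 and 2.41 in MM. MP, MC and ML lay above both MM libraries and MT below them. The differences from MM were 2.45 ± 0.24 in MP (adjusted p = 1.51e-09), 1.94 ± 0.20 in MC (adjusted p = 1.36e-09) and 0.83 ± 0.20 in ML (adjusted p = 0.00212), and the TNF difference of -0.27 ± 0.20 was not called (adjusted p = 0.571). Calls given from here on held under each alternative in which the region was tested and with each library of the compared groups left out, except where a loss is given.

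Of the 7 regions of Trim30a, 6 were higher in MP and 6 in MC, against 14.3% and 17.2% of all regions. A region deep inside the gene (chr7:104428616-104429117) had its highest single-stimulus level in MC. It measured 2.18 and 2.71 in MC against 0.40 and -0.10 in MM, a difference of 2.30 ± 0.40 (adjusted p = 3.09e-05), on 19 and 32 reads in MC against 4 and 1 in MM. In MP the values were 1.81 and 1.58, a difference of 1.55 ± 0.49 from MM (adjusted p = 0.0196), which was lost with quantile normalization, with only the compared groups in the fit and without MM replicate 2.

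By median, the starts that carry the element were more open than the other regions of the list and differed by less. Over the outer Trim30a start, described after its values were seen, the region (chr7:104465048-104465549) measured 6.19 and 6.17 in MP against 6.06 and 5.83 in MM, a difference of 0.24 ± 0.14 that was not called (adjusted p = 0.26). The region over the inner start (chr7:104445907-104446408) measured 6.24 and 6.35 in MP against 5.77 and 5.70 in MM, a difference of 0.56 ± 0.14 (adjusted p = 0.00372). Over the 9 starts with the element, a set formed after the values were seen, mean levels ran from 3.28 to 6.02 log2 CPM with a median of 5.36, and differences between MP and MM ran from -0.06 to 0.80 with a median of 0.24. The other 31 antiviral regions had a median level of 3.38 and differences of -0.63 to 3.39 with a median of 0.76. They include the starts of Trim30c and Trim56, described below, which rose in MP by more than any of the 9. Limma called 3 of the 9 and 17 of the 31 higher in MP, and 5 of the 9 and 16 of the 31 higher in PT than in MT. Of all regions within 1 kb of a gene end, 6.53% were higher in MP and 8.3% in PT, at a median level of 4.40. Of all regions inside genes, 16.4% and 16.9% were, at a median level of 3.50. Being more open and less often called higher was thus also a trait of gene ends in general.

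**Figure D2:**
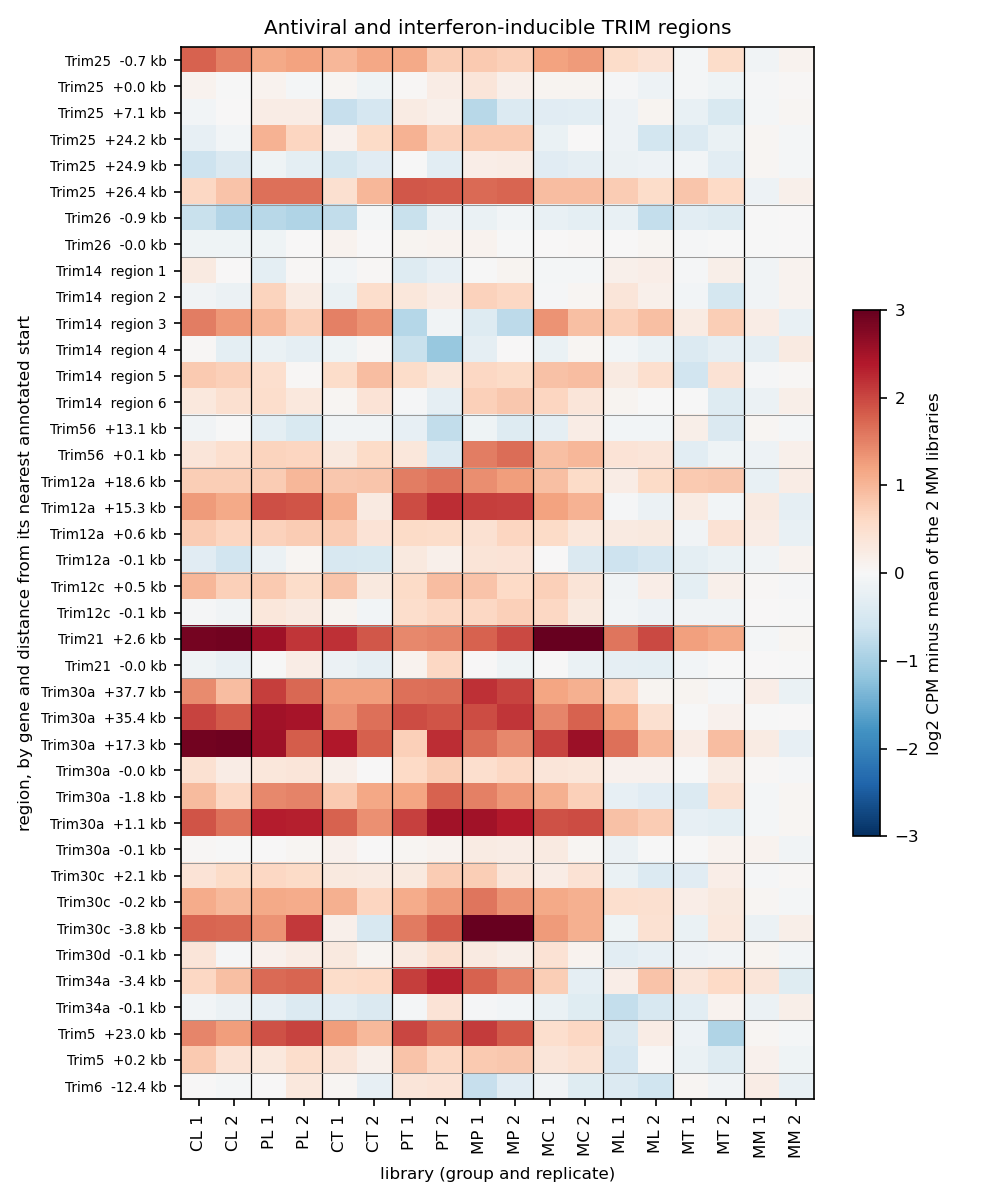
Each of the 40 antiviral and interferon-inducible TRIM regions (rows, by gene and distance in kb from the nearest annotated start, or numbered where no start position was given) in the 18 libraries (columns), coloured by log2 CPM minus the mean of the 2 MM libraries. Rows of Trim30a, Trim30c, Trim12a and Trim5 are red in the columns of PL, PT and MP, and the rows at 0.0 and -0.1 kb from a start are paler.

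Trim30c, a neighbour of Trim30a in the cluster, had the widest polyI:C difference of any antiviral TRIM region that was called. The region lies between genes, 3438 bases from the gene body (chr7:104404290-104404791). It measured 3.63 and 3.43 in MP, on 65 and 47 reads, against -0.05 and 0.31 in MM, on 2 reads in each library, a difference of 3.39 ± 0.50 (adjusted p = 2.84e-06). MP stood above every other group there, with 1.42 and 1.19 in MC, and the difference between MP and MC was 2.22 ± 0.50 (adjusted p = 0.00217). The prior built into the log2 values pulls such low counts together. The region was also named for its large rise, so whether its differences are understated or overstated was not tested. The region over the Trim30c start (chr7:104400717-104401218) was open in every group, at 6.46 and 6.20 in MP and 6.00 and 5.93 in MC against 4.93 and 4.80 in MM. It rose by 1.47 ± 0.16 in MP (adjusted p = 8.53e-09) and by 1.10 ± 0.13 in MC (adjusted p = 2.64e-08).

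Trim12a, Trim12c and Trim5 encode the mouse relatives of primate TRIM5, which restricts retroviruses by binding their capsids. A region at the far end of Trim12a (chr7:104299911-104300412) measured 4.58 and 4.55 in MP and 3.72 and 3.56 in MC, against 2.79 and 2.23 in MM. Both stimuli lay above medium with no overlap, by 2.06 ± 0.29 in MP (adjusted p = 1.08e-06) and 1.13 ± 0.23 in MC (adjusted p = 0.000317). ML, at 2.47 and 2.34, and MT, at 2.77 and 2.43, overlapped with MM, with differences of -0.10 ± 0.23 (adjusted p = 0.791) and 0.09 ± 0.23 (adjusted p = 0.916). The Trim12c start (chr7:104353215-104353716) rose by 0.67 ± 0.15 in MP (adjusted p = 0.00137), with 6.03 and 6.14 in MP against 5.43 and 5.40 in MM. Inside Trim5 a low region (chr7:104264858-104265359) measured 2.80 and 2.53 in MP against 0.74 and 0.64 in MM. Its difference of 1.98 ± 0.43 (adjusted p = 0.000736) lost its call with quantile normalization (adjusted p = 0.0675), and its MC difference was 0.56 ± 0.35 (adjusted p = 0.27).

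Trim34a is an interferon-inducible member of the same cluster, and its region between genes was called higher in MP but not in MC, ML or MT. That region (chr7:104240787-104241288) measured 3.45 and 3.17 in MP, 2.42 and 1.41 in MC, 1.87 and 2.53 in ML and 2.05 and 2.28 in MT, against 2.04 and 1.32 in MM. The MP libraries were above all the others named, and the difference from MM was 1.63 ± 0.37 (adjusted p = 0.00117). For MC, ML and MT it was 0.24 ± 0.30, 0.52 ± 0.30 and 0.48 ± 0.30, with adjusted p-values of 0.632, 0.215 and 0.463. The direct difference between MP and MC was 1.40 ± 0.37 (adjusted p = 0.00962) and was lost without MC replicate 2 (adjusted p = 0.184). The Trim34a start (chr7:104244115-104244616) was called lower in ML, with 4.29 and 4.53 in ML against 4.84 and 5.19 in MM, at -0.61 ± 0.17 (adjusted p = 0.0078), lost without ML replicate 1 (0.127) and without MM replicate 2 (0.175).

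Trim21, the cytosolic antibody receptor that targets antibody-coated virus for degradation, had its highest levels with CpG. Its region inside the gene, 2614 bases from the start (chr7:102562618-102563119), measured 2.02 and 2.24 in MP, 3.24 and 3.31 in MC, 1.87 and 2.24 in ML and 1.48 and 1.39 in MT, against 0.19 and 0.31 in MM. Every stimulated library was above both MM libraries, which had 3 and 2 reads. The differences from MM were 3.02 ± 0.29 in MC (adjusted p = 3.32e-10), 1.88 ± 0.36 in MP (adjusted p = 0.000129) and 1.80 ± 0.29 in ML (adjusted p = 1.33e-05). MP lay below MC by -1.15 ± 0.36 (adjusted p = 0.0273), lost without either MC replicate. For TNF it was 1.18 ± 0.29 (adjusted p = 0.00741), lost with quantile normalization (adjusted p = 0.339), with only the compared groups in the fit (0.0853), without MM replicate 1 (0.0545) and without MT replicate 1 (0.0668). The region over the Trim21 start (chr7:102565261-102565762), with the element shown, was at 5.42 and 5.29 in MP and 5.39 and 5.21 in MC against 5.42 and 5.39 in MM, and neither difference was called (adjusted p = 0.876 and 0.636).

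Trim25, the ubiquitin ligase known for activating the RNA sensor RIG-I, rose at a region 5273 bases from the gene (chr11:89025567-89026068). The values were 3.77 and 3.83 in MP, 3.01 and 3.01 in MC, 2.82 and 2.62 in ML and 2.90 and 2.67 in MT, against 1.91 and 2.23 in MM, so that every stimulated library exceeded MM. The MP difference was 1.73 ± 0.28 (adjusted p = 1.72e-05). Not all of the 6 Trim25 regions rose: 2 were higher and 1 lower in MP, against 14.3% and 8.28% of all regions. Between CL and ML 1 was higher and 1 lower, against 9.95% and 5.76%. The lower one was the most open Trim25 region (chr11:89024097-89024598). Its call was lost with quantile normalization, without CL replicate 1 and without either ML replicate. The start of Trim56, whose protein supports sensing through cGAS and STING, measured 5.34 and 5.47 in MP and 4.70 and 4.79 in MC against 3.65 and 3.97 in MM (chr5:137115870-137116371). It rose by 1.60 ± 0.24 in MP (adjusted p = 2.9e-06) and by 0.94 ± 0.19 in MC (adjusted p = 0.000273). Trim26, whose start carries both the response element and the NF-kB letters, was flat: its start region (chr17:36836852-36837353) measured 6.12 and 6.00 in MP, 6.01 and 6.04 in MC, 6.01 and 6.06 in ML and 5.98 and 6.00 in MT, against 6.00 and 6.02 in MM. Neither of its 2 regions was called in any of the 12 comparisons between groups.

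**Figure D3:**
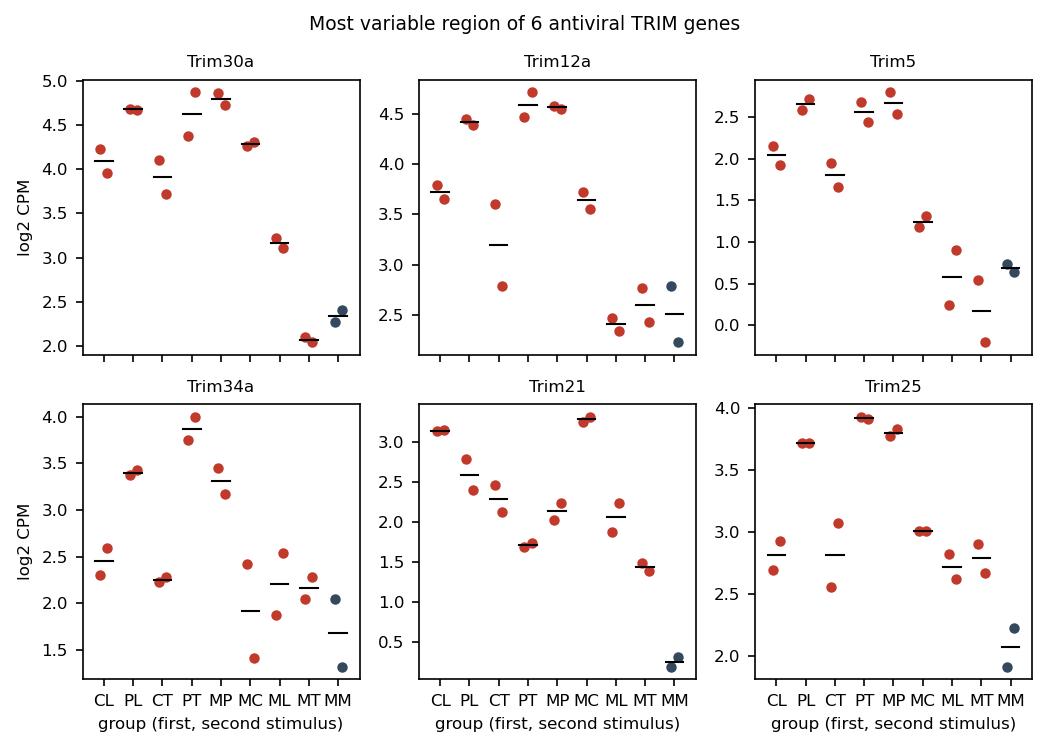
Log2 CPM in each library (points) and group mean (lines) for the most variable region of 6 antiviral TRIM genes, with MM in dark blue. Trim30a, Trim12a, Trim5, Trim34a and Trim25 are high in PL, PT and MP, while Trim21 is highest in MC, at 3.24 and 3.31, and lowest in MM, at 0.19 and 0.31.

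At Trim14 a region stood lower with polyI:C than with CpG, alone and before TNF. The protein works at the mitochondrial adaptor MAVS and protects the DNA sensor cGAS. The region inside Trim14 (chr4:46530824-46531325) measured 1.17 and 0.76 in MP against 2.89 and 2.44 in MC, a difference of -1.70 ± 0.38 (adjusted p = 0.00186), and the libraries did not overlap. With MM at 1.77 and 1.32, the difference of -0.58 ± 0.38 between MP and MM was not called (adjusted p = 0.301), nor was that between PL and ML, at 2.54 and 2.26 in PL against 2.26 and 2.44 in ML (adjusted p = 0.926). After a first stimulus and then TNF it measured 3.05 and 2.89 in CT against 0.69 and 1.45 in PT, a difference of 1.90 ± 0.31 (adjusted p = 2.35e-05). The fall of -0.97 ± 0.31 in PT relative to MT (adjusted p = 0.018), where MT had 1.79 and 2.28, was lost with only the compared groups in the fit (adjusted p = 0.112), without MT replicate 2 (0.171) and without PT replicate 1 (0.193).

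The study's sequential groups ask whether a first stimulus leaves a mark that is seen after a second one. With polyI:C as first stimulus the antiviral TRIM regions were more open than with medium first, under both second stimuli. No group had CpG or polyI:C first and then medium alone, so whether openness lasts by itself was not tested. In PL 20 of the 40 regions were higher than in ML, with a median of 0.47 and none lower by limma or voom (0 also at an unadjusted p under 0.05), against 13.5% of all regions higher and 9.36% lower. In PT 21 were higher and 2 lower than in MT, with a median of 0.55 (all regions, 15% and 12.7%). CpG as first stimulus gave 16 higher and 1 lower in CL than in ML (all regions, 9.95% and 5.76%), and 12 higher in CT than in MT (all regions, 10.6% and 5.65%). Most of these calls lay in the chromosome 7 cluster, where neighbouring regions are not separate loci. Of the 16 in CL, 5 were at Trim30a, 3 at Trim30c, 2 at Trim5 and 1 each at Trim12a, Trim12c, Trim30d and Trim34a. Outside the cluster, Trim21 and Trim25 had 1 each. Of the 20 in PL, 4 were at Trim30a, 3 at Trim30c and 2 each at Trim12a, Trim12c and Trim5, while Trim25 had 3. In either direction 22.9% of all regions were called in PL, 27.7% in PT, 15.7% in CL and 16.3% in CT. Among the other 124 TRIM regions, PL had 8 higher and 13 lower, PT 9 and 14, CL 7 and 4, and CT 10 and 5.

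These counts leaned on single libraries to different degrees. The CL count of 17 antiviral calls became 4 without CL replicate 1, 8 without ML replicate 1 and 9 without ML replicate 2. The PL count of 20 became 10 and 12 without ML replicates 1 and 2, and 13 and 11 without PL replicates 1 and 2. For CT the 12 became 5 without MT replicate 1. For PT, whose replicates differed most (r = 0.919 over all regions, 0.958 to 0.973 in the other groups), the 23 became 24 and 19 without PT replicates 1 and 2.

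Regions that rose with polyI:C alone and those higher with polyI:C as first stimulus were counted in comparisons with no library in common. Of the 20 antiviral regions higher in MP and the 20 higher in PL, 14 were the same, 70% of each. Over all regions the shared higher ones were 44.1% of those called in MP and 46.5% of those called in PL. With TNF as second stimulus 15 were shared, 75% of the MP list and 71.4% of the PT list, against 51.2% and 48.7% over all regions. PL and PT shared 18, which was 90% of the PL list and 85.7% of the PT list, against 69.2% and 62.5% over all regions. For CpG, 10 were shared between MC and CL, 55.6% and 62.5% of the lists, against 34% and 59% over all regions. MC and CT shared 11, 61.1% and 91.7% of the lists, against 42.6% and 69% over all regions. An overlap also depends on how much of a set was called at all. Of the antiviral regions 50% were higher in PL, 52.5% in PT, 40% in CL and 30% in CT. For all regions these shares were 13.5%, 15%, 9.95% and 10.6%. The larger antiviral overlaps are therefore not read as a stronger link between the comparisons than over all regions.

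**Figure D4:**
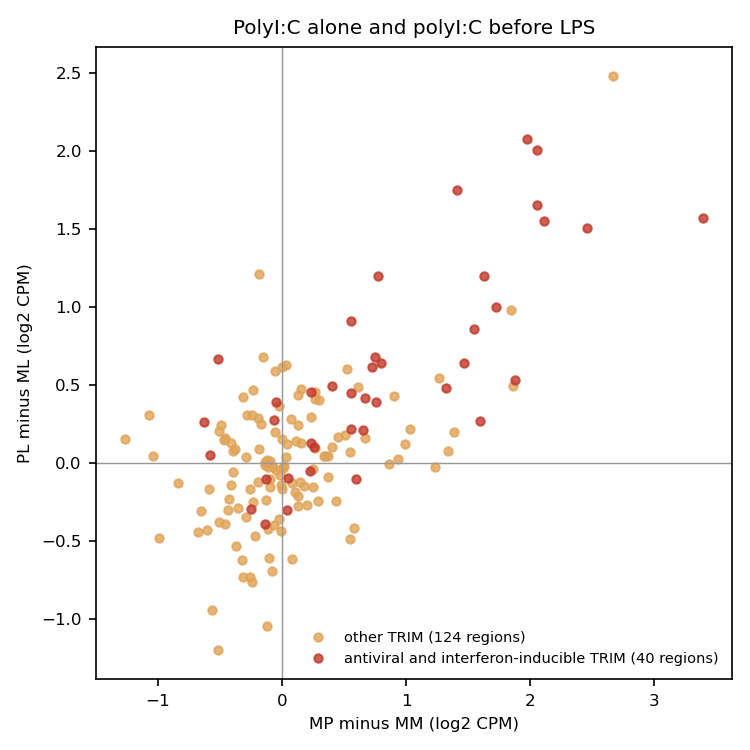
Each TRIM region by its log2 CPM difference between MP and MM (x axis) and between PL and ML (y axis), which share no library. Antiviral regions (red) reach 3.39 on the x axis at Trim30c and 2.08 on the y axis at Trim5, with the Trim33 region (2.67 and 2.49) as the highest of the other TRIM regions (orange) on both axes.

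At the variable Trim30a region (chr7:104463874-104464375) every group with an earlier stimulus lay above its own control. It measured 4.22 and 3.96 in CL and 4.69 and 4.67 in PL, against 3.22 and 3.11 in ML. In the TNF groups it measured 4.11 and 3.72 in CT and 4.38 and 4.87 in PT, against 2.10 and 2.04 in MT. The libraries did not overlap in either set. The differences were 0.93 ± 0.20 for CL (adjusted p = 0.00138), 1.51 ± 0.20 for PL (adjusted p = 1.29e-06), 1.84 ± 0.20 for CT (adjusted p = 1.67e-08) and 2.55 ± 0.20 for PT (adjusted p = 4.26e-11). Whether the first stimulus acted differently before LPS and before TNF was tested as a difference of differences, and limma called no TRIM region. At an unadjusted p under 0.05 there were 19 of 164 TRIM regions for CpG and 7 for polyI:C. At that same threshold 3060 of all 53796 regions were higher and 3461 lower for CpG, and 1490 and 1107 for polyI:C. The TRIM regions were thus no more frequent than regions in general. By adjusted p, 0.245% of all regions were called for CpG (0.00929% higher) and 0% for polyI:C. Voom on recovered reads called no TRIM region for either. With only the compared groups in the fit 4 were called for CpG, and without PT replicate 1 there was 1 for polyI:C.

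At Trim12a and Trim5 the differences after polyI:C were close to the same under both second stimuli. The Trim12a region (chr7:104299911-104300412) measured 3.79 and 3.66 in CL and 4.45 and 4.38 in PL against 2.47 and 2.34 in ML, with differences of 1.32 ± 0.23 (adjusted p = 0.000172) and 2.01 ± 0.23 (adjusted p = 1.89e-07). In PT it measured 4.47 and 4.71 against 2.77 and 2.43 in MT, a difference of 2.00 ± 0.23 (adjusted p = 1.23e-07), and CT, at 3.60 and 2.79, was not called against MT. The Trim5 region (chr7:104264858-104265359) measured 2.59 and 2.71 in PL against 0.25 and 0.90 in ML, and 2.68 and 2.44 in PT against 0.54 and -0.20 in MT. These differences were 2.08 ± 0.35 (adjusted p = 5.41e-05) and 2.39 ± 0.35 (adjusted p = 5.44e-06). After CpG the Trim5 difference of 1.47 ± 0.35 between CL and ML (adjusted p = 0.00389) was lost without CL replicate 1 (adjusted p = 0.0625) and without ML replicate 1 (0.104).

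Both first stimuli were compared directly under the same second stimulus. Before TNF, 2 antiviral regions were higher and 13 lower in CT than in PT, with a median of -0.31 (all regions, 17.3% and 14.6%). Before LPS 4 were lower in CL than in PL and none higher by limma or voom (0 also at an unadjusted p under 0.05), against 4.24% of all regions higher and 4.23% lower. In either direction 32% of all regions were called between CT and PT and 8.47% between CL and PL. That count of 4 became 1, 2, 0 and 1 without CL replicates 1 and 2 and PL replicates 1 and 2. It became 2 with the filter on low regions, 7 with quantile normalization, with a shift to one median, with voom and with MP counted as 2 libraries, and 11 when the other groups were left out of the fit. The differences between CT and PT included Trim30c (chr7:104404290-104404791), at 0.29 and -0.34 in CT against 1.69 and 1.97 in PT, or -1.86 ± 0.41 (adjusted p = 0.000889). Trim34a (chr7:104240787-104241288) stood at 2.22 and 2.28 in CT against 3.75 and 4.00 in PT, or -1.62 ± 0.30 (adjusted p = 0.00016). For Trim12a (chr7:104299911-104300412) the difference was -1.40 ± 0.23 (adjusted p = 3.74e-05) and for Trim25 (chr11:89025567-89026068) -1.10 ± 0.23 (adjusted p = 0.00057).

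Set against the other single stimuli, polyI:C alone gave 6 antiviral regions higher and 2 lower than CpG alone (all regions, 5.2% and 7.47%), and 19 higher and 2 lower than LPS alone (all regions, 6.24% and 5.19%). The first total of 8 became 4 and 3 without MC replicates 1 and 2, and the second of 21 became 13 without either ML replicate. By group mean, 14 of the 40 antiviral regions had their highest level in MP (35%) and 12 in PT (30%), against 13.7% and 17.3% of all regions. The lowest level fell in MM for 11 (27.5%), in ML for 10 (25%) and in MT for 9 (22.5%), against 19%, 11.9% and 6.52% of all regions.

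Among the TIF1 family, chromatin factors of the TRIM family, 13 regions were measured at Trim24, Trim28, Trim33 and Trim66. Of these, 2 were higher and 1 lower in MP, 1 and 1 in MC, 1 and 1 in ML, 2 higher in PL and 3 higher in PT. The shares higher were 15.4% in MP, 15.4% in PL and 23.1% in PT, against 14.3%, 13.5% and 15% of all regions. In MC and ML they were 7.69% each, against 17.2% and 15%. The share lower was 7.69% in each of MP, MC and ML, against 8.28%, 8.79% and 9.55% of all regions. In PL and PT 0 were lower, against 9.36% and 12.7%. Trim33, which reads histone marks, regulates SMAD signalling and restrains interferon beta transcription in mouse macrophages, held the widest TRIM difference between MP and MM outside the antiviral list. Its region inside the gene (chr3:103314304-103314805) measured 3.50 and 3.62 in MP against 1.13 and 0.64 in MM, 3.62 and 3.54 in PL against 1.44 and 0.75 in ML, and 3.46 and 3.31 in PT against 1.19 and 0.69 in MT. All polyI:C libraries lay within 3.31 to 3.62, whether polyI:C came first or second, and none of their controls passed 1.44. The differences were 2.67 ± 0.38 (adjusted p = 1.27e-06), 2.49 ± 0.31 (adjusted p = 4.7e-07) and 2.44 ± 0.31 (adjusted p = 3.9e-07).

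CpG moved the same Trim33 region less. It measured 2.18 and 1.92 in MC, 1.88 and 1.85 in CL and 2.09 and 2.06 in CT. The direct differences from polyI:C were -1.72 ± 0.31 for CL minus PL (adjusted p = 0.000534), -1.31 ± 0.31 for CT minus PT (adjusted p = 0.00161) and 1.51 ± 0.38 for MP minus MC (adjusted p = 0.00548). Trim24, a coactivator and corepressor of nuclear receptors, fell at a region 27590 bases from the gene (chr6:37842720-37843221), with 3.50 and 3.10 in MP against 4.35 and 4.39 in MM, or -1.07 ± 0.23 (adjusted p = 0.000551). Trim66 rose at a region inside the gene (chr7:109456517-109457018), to 4.67 and 4.60 in MP and 4.63 and 4.44 in ML, against 3.83 and 3.57 in MM. Those differences were 0.93 ± 0.22 (adjusted p = 0.00179) and 0.83 ± 0.18 (adjusted p = 0.000808). The one Trim28 region, at the gene of the corepressor that serves KRAB zinc finger proteins, was not called with any single stimulus, at 4.05 and 4.19 in MP against 4.27 and 4.43 in MM.

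Of 32 regions at 13 regulators of innate signalling, 2 rose with each single stimulus, 6.25% of the list, against 14.3% of all regions in MP, 17.2% in MC, 15% in ML and 5.79% in MT. In the same list 1 fell in MP (3.125%), 5 in MC (15.6%) and 4 in ML (12.5%), against 8.28%, 8.79% and 9.55% of all regions. In all 4 cases both risen regions belonged to Trim13, a ubiquitin ligase of the endoplasmic reticulum membrane, but its calls in MP and MT were lost in several settings. LPS moved it most. Its region between genes (chr14:61588330-61588831) measured 1.88 and 2.24 in MP, 2.53 and 2.67 in MC, 3.13 and 3.08 in ML and 2.31 and 1.95 in MT, against 1.35 and 0.31 in MM. The difference was 2.28 ± 0.29 in ML (adjusted p = 1.76e-07) and 1.77 ± 0.29 in MC (adjusted p = 1.08e-05). In MP it was 1.23 ± 0.35 (adjusted p = 0.00962), lost with quantile normalization (adjusted p = 0.388), with only the compared groups in the fit (0.0829) and without MM replicate 2 (0.183). In MT it was 1.30 ± 0.29 (adjusted p = 0.00266), lost with quantile normalization (adjusted p = 0.266), without MM replicate 2 (0.215) and without MT replicate 1 (0.0716). The second Trim13 region, 704 bases from the gene (chr14:61597021-61597522), rose by 1.25 ± 0.24 in ML (adjusted p = 0.00013) and 1.18 ± 0.24 in MC (adjusted p = 0.000208). There the MP difference of 0.90 ± 0.29 (adjusted p = 0.0206) was lost with quantile normalization, with only the compared groups in the fit, without MM replicate 1 and without MP replicate 2. The MT difference of 0.83 ± 0.24 (adjusted p = 0.0248) was lost in those first 2 settings, with voom, without MM replicate 1 and without MT replicate 2.

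The same group held falls. The start of Trim59 (chr3:69044491-69044992), which encodes a membrane-bound TRIM protein, measured 4.45 and 4.71 in MC and 5.15 and 5.04 in MT, against 5.16 and 5.56 in MM. MC lay below MM without overlap, at -0.78 ± 0.16 (adjusted p = 0.00034), while MT differed by -0.27 ± 0.16 (adjusted p = 0.447). In PT it measured 4.22 and 4.48 against 5.15 and 5.04 in MT, at -0.75 ± 0.16 (adjusted p = 0.000816). Trim8, which modifies the kinase TAK1 in TNF and interleukin signalling, had 3 of its 6 regions lower in PL and 3 lower in PT. Of all regions 9.36% were lower in PL and 12.7% in PT. The region inside Trim8 (chr19:46504008-46504509) measured 5.51 and 5.06 in PL against 6.07 and 6.03 in ML, at -0.76 ± 0.19 (adjusted p = 0.00386), lost without PL replicate 2 (adjusted p = 0.139). It measured 5.86 and 6.00 in CT against 5.16 and 4.15 in PT, a difference of 1.27 ± 0.19 (adjusted p = 8.06e-06), and the 2 PT libraries were 1.01 apart. Trim65, which activates the RNA sensor MDA5 in humans and mice, and Trim35 each had 1 region. At Trim65 (chr11:116130428-116130929) CT exceeded PT by 0.78 ± 0.17 (adjusted p = 0.000646), and at Trim35 (chr14:66296706-66297207) PL was below ML, at -0.69 ± 0.17 (adjusted p = 0.00242).

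**Figure D5:**
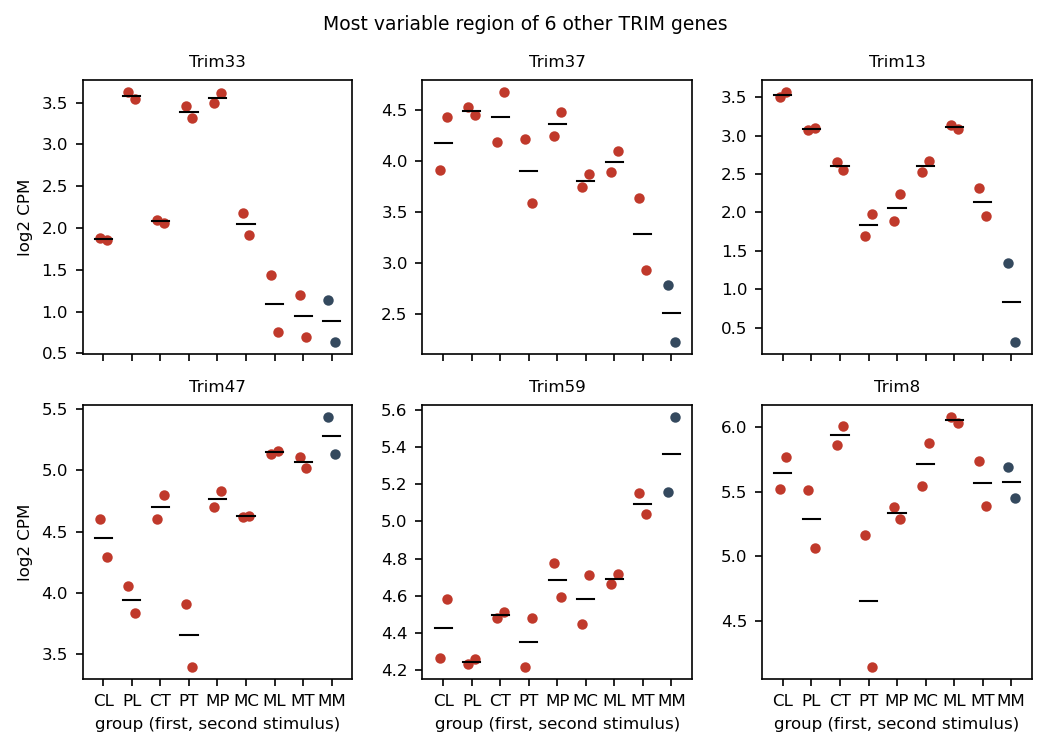
Log2 CPM in each library (points) and group mean (lines) for the most variable region of 6 TRIM genes outside the antiviral list, with MM in dark blue. Trim33 is high in PL, PT and MP, Trim13 is high in CL, PL and ML, and Trim47 and Trim8 reach their lowest library in PT.

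Of the 39 regions at 13 genes outside the functional lists, 4 were higher and 3 lower in MP and 5 and 4 in MC. The shares higher, 10.3% in MP and 12.8% in MC, were under the 14.3% and 17.2% of all regions. The shares lower were 7.69% and 10.3%, against 8.28% and 8.79% of all regions. Trim47, a ubiquitin ligase studied mainly in vascular cells, had the widest fall of any TRIM region in PL and in PT. Its region 226 bases from the gene (chr11:116110461-116110962) measured 4.60 and 4.29 in CL and 4.06 and 3.84 in PL, against 5.14 and 5.16 in ML, and 3.91 and 3.40 in PT against 5.11 and 5.02 in MT. Groups did not overlap. The differences were -1.20 ± 0.17 for PL (adjusted p = 3.81e-06) and -1.41 ± 0.17 for PT (adjusted p = 1.82e-07). For CL it was -0.70 ± 0.17 (adjusted p = 0.00402), lost without CL replicate 2 (adjusted p = 0.0912).

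Trim37, a ligase with roles at centrosomes, peroxisomes and histones, rose inside the gene (chr11:87189363-87189864) with 4.25 and 4.48 in MP, 3.74 and 3.88 in MC and 3.89 and 4.10 in ML, against 2.79 and 2.23 in MM. These differences were 1.86 ± 0.29 (adjusted p = 7.02e-06), 1.30 ± 0.24 (adjusted p = 5.35e-05) and 1.49 ± 0.24 (adjusted p = 1.03e-05). Trim41 had 2 regions that moved in opposite directions with polyI:C. The one inside the gene (chr11:48813549-48814050) measured 2.51 and 3.34 in MP against 4.09 and 4.28 in MM, at -1.26 ± 0.24 (adjusted p = 0.000124). The one 2116 bases outside it (chr11:48820315-48820816) measured 3.22 and 3.78 in MP against 1.53 and 1.78 in MM, at 1.84 ± 0.32 (adjusted p = 3.91e-05). After CpG and then TNF the inner region stood higher, at 4.34 and 4.31 in CT against 3.58 and 3.38 in MT, or 0.84 ± 0.20 (adjusted p = 0.00214). The start of Trim69 (chr2:122161460-122161961) rose by 1.34 ± 0.24 in MP (adjusted p = 7.21e-05), with 5.00 and 4.54 in MP against 3.50 and 3.37 in MM.

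At genes best known from the nervous system the shares of higher regions in MP, MC and ML were near the background. Of 31 regions at 7 neuronal and developmental genes, 4 were higher and 3 lower in MP, 7 and 1 in MC and 5 and 3 in ML. The shares higher were 12.9%, 22.6% and 16.1%, against 14.3%, 17.2% and 15% of all regions. The shares lower were 9.68%, 3.23% and 9.68%, against 8.28%, 8.79% and 9.55%. In MT 4 were higher, 12.9% against 5.79% of all regions, and those calls were lost with quantile normalization. In CL, relative to ML, limma called 0 higher (7 at an unadjusted p under 0.05) and 1 lower, against 9.95% and 5.76% of all regions. The region inside Trim9, a neuronal ligase (chr12:70300687-70301188), measured 3.04 and 2.59 in MC and 3.20 and 2.81 in ML, against 1.01 and 1.64 in MM, with differences of 1.49 ± 0.27 (adjusted p = 4.71e-05) and 1.68 ± 0.27 (adjusted p = 1.1e-05). Inside Trim3, another neuronal member (chr7:105630503-105631004), the values were 3.48 and 3.31 in MC and 3.20 and 3.45 in ML, against 2.27 and 1.13 in MM, with differences of 1.69 ± 0.28 (adjusted p = 1.22e-05) and 1.63 ± 0.28 (adjusted p = 3.31e-05). A region between genes assigned to Trim36 rose with 4.34 and 3.79 in MC, 3.79 and 3.81 in MP and 3.61 and 3.45 in ML, against 2.42 and 2.64 in MM. Its differences were 1.53 ± 0.20 (adjusted p = 1.62e-07), 1.27 ± 0.24 (adjusted p = 0.000135) and 1.00 ± 0.20 (adjusted p = 0.000233). Other regions of Trim3 and Trim36 fell. The most open Trim3 region (chr7:105633353-105633854) was called lower in MC, ML and MP. The most open Trim36 region (chr18:46198585-46199086) was called lower in ML, and another (chr18:46179178-46179679) in ML and MP. Each of these falls lost its call when some single library was left out.

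The muscle genes Trim55, Trim63 and Trim72 had 9 regions. Trim72, whose protein helps to reseal muscle membranes, had a region 965 bases from the gene (chr7:128001996-128002497) that measured 4.23 and 4.23 in MP and 2.85 and 2.83 in MC, against 3.20 and 3.28 in MM. MP differed from MM by 0.99 ± 0.28 (adjusted p = 0.00937) and from MC by 1.39 ± 0.28 (adjusted p = 0.000773). Trim55, which encodes a sarcomere protein, had a region inside the gene (chr3:19664444-19664945) that was higher after a first stimulus and then a second one. It measured 2.79 and 2.71 in PL against 1.44 and 1.64 in ML, and 2.97 and 3.52 in PT against 1.79 and 1.95 in MT, with differences of 1.21 ± 0.30 (adjusted p = 0.00346) and 1.37 ± 0.30 (adjusted p = 0.000931). After CpG it was 0.90 ± 0.30 higher in CL than in ML (adjusted p = 0.039), with 2.23 and 2.63 in CL, lost with quantile or median normalization and without any of the 4 libraries. In CT, at 2.65 and 3.08, it was 0.99 ± 0.30 higher than in MT (adjusted p = 0.0203), lost with quantile normalization and without CT replicate 2 or either MT replicate. With polyI:C alone Trim55 stood at 1.28 and 1.47 in MP against 1.35 and 1.78 in MM, a difference of -0.19 ± 0.37 that was not called (adjusted p = 0.781).

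The pathway in which many antiviral TRIM proteins act was read through 72 regions at 19 of 20 listed genes, which cover the RNA and DNA sensors, their adaptors and kinases, the interferon transcription factors and TRIM-like proteins without a Trim symbol. In MP 27 were higher and 1 lower and in MC 27 and 1, with medians of 0.44 and 0.29. The shares higher were 37.5% in each, against 14.3% and 17.2% of all regions. In ML 16 were higher and 1 lower, and 22.2% higher stood against 15% of all regions. The share lower was 1.39% in each of MP, MC and ML, against 8.28%, 8.79% and 9.55% of all regions. In MT 5 were higher, 6.94% against 5.79% of all regions. In CL 12 were higher and 1 lower, in PL 20 and 1, in CT 15 and 1 and in PT 23 and 5. The shares higher were 16.7%, 27.8%, 20.8% and 31.9%, against 9.95%, 13.5%, 10.6% and 15% of all regions. The shares lower were 1.39%, 1.39%, 1.39% and 6.94%, against 5.76%, 9.36%, 5.65% and 12.7%. Rnf135, which works beside Trim25 in activating RIG-I, had a region inside the gene (chr11:80185020-80185521) at 4.71 and 4.81 in MP against 0.88 and 0.31 in MM, or 4.16 ± 0.33 (adjusted p = 1.64e-11). The RNA sensor gene Ifih1 (chr2:62648613-62649114, between genes) rose by 2.50 ± 0.35 in MP (adjusted p = 1.1e-06), with 4.24 and 4.19 in MP against 1.53 and 1.91 in MM. The starts of Irf7 (chr7:141266208-141266709) and Isg15 (chr4:156200527-156201028) rose by 1.97 ± 0.24 (adjusted p = 9.29e-08) and 2.40 ± 0.23 (adjusted p = 5.24e-10) in MP, and were not called in MT, with adjusted p-values of 0.589 and 0.799.

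Between MP and MC, 11 of these 72 pathway regions were higher and 5 lower. These shares of 15.3% and 6.94% stood against 5.2% and 7.47% of all regions. Among the higher was the Ifih1 region named above, by 1.35 ± 0.35. Mid1, a TRIM-type ligase bound to microtubules, was lower in MP than in MC, as Trim14 was. The region inside the gene (chrX:169786601-169787102) measured 1.28 and 1.23 in MP against 3.99 and 3.71 in MC, a difference of -2.59 ± 0.39 (adjusted p = 1.28e-05). At Mavs, the adaptor gene (chr2:131239609-131240110), the values were 2.80 and 2.36 in MP against 3.72 and 3.64 in MC, a difference of -1.10 ± 0.27 (adjusted p = 0.00516). For these 2 genes and Trim14 the MP libraries lay below both MC libraries.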

How the data were processed

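ATAC-seq of 18 macrophage libraries, 2 in each of 9 groups taken from the labels, was used. The submitters' processing notes name MACS3 3.0.0b1, featureCounts, Bowtie2 2.2.5, Picard and SAMtools 1.9, and build mm10 (GRCm38). Their settings are not given in the sources used here. The authors deposited log2 CPM per region and library. The values came out as whole reads with a prior of 3 reads, which gave each region's reads and the depth of 3141641 to 5986835 reads a library.

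Regions were assigned to the nearest protein-coding gene within 50 kb (RefSeq, GRCm38.p6). Group means were fitted to all 53796 regions with limma 3.58.1 in R 4.3.3, with a variance trend and Benjamini-Hochberg adjustment over all regions, after tests on simulated data. All 18 libraries were planned as separate samples, but the MP pair was averaged because it differed by no more than about sampling noise, and counting it as 2 libraries is an alternative. The other alternatives were quantile and median normalization, a filter on low regions, log2(CPM + 1), limma-voom on the recovered reads, only the compared groups in the fit, a replicate block, a 10 kb window, assignment by the nearer gene end and leaving out each library.

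The members and gene lists were chosen with earlier results of these data known. Regions named are, per TRIM gene, those of highest mean level and largest F statistic and, per comparison, up to 4 called regions of largest rise and fall whose libraries do not overlap, 1 a gene, and for partner genes that of largest F. Same-numbered libraries deviated together in 5 of 36 pairs of groups, so the numbers were not used as pairs. Python 3.11.15, pandas 2.3.3, numpy 2.4.6 and matplotlib 3.10.9 were used. A gene of the partner list is not reported here by name.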

Additional observations from a re-analysis of the deposited data

How the results depend on the processing

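Of 415 called differences at the named regions none changed sign, and 171 of 3194 repeats under another setting lost the call, 71 of them with quantile normalization. With 1 library left out, 549 calls were lost and 1111 were not. Over all TRIM regions, quantile normalization gave 0 calls for MT over MM (12 as reported, 23 at an unadjusted p under 0.05), 15 for CT over MT (27 as reported) and 19 for CL over PL (11 as reported). The filter on low regions gave 7 for MT over MM, 16 for CT over MT, 7 for MP over MC (17 as reported) and 15 for MP over ML (29 as reported). Only the compared groups in the fit gave 27 for PT over MT (46 as reported), 27 for CL over PL, 25 for CT over PT (44 as reported), 49 for MP over ML and 4 for the CpG difference of differences (0 as reported). Voom gave 28 for MP over MC, and so did MP counted as 2 libraries. Among the antiviral regions, quantile normalization gave 4 for LPS alone, 0 for TNF alone, 6 for CT over MT and 7 for CL over PL. The filter gave 1 for TNF alone, 11 for CL over ML, 7 for CT over MT, 2 for CL over PL, 3 for MP over MC and 13 for MP over ML. A shift to one median, voom and MP counted as 2 each gave 7 for CL over PL, and for MP over MC voom gave 15 and MP counted as 2 gave 14. Only the compared groups gave 1 for TNF alone, 11 for CL over PL, 13 for MP over MC and 1 for the CpG difference of differences. The cause was not tested, except that the filter tests fewer regions. Leaving out 1 library gave, over all TRIM regions, 24 to 31 calls for MC over MM (45 as reported), 18 to 25 for ML over MM (31), 32 to 47 for MP over MM (42), 3 to 6 for MT over MM, 9 to 15 for CL over ML (28), 19 to 24 for PL over ML (41), 11 to 17 for CT over MT, 27 to 49 for PT over MT, 2 to 6 for CL over PL, 25 to 55 for CT over PT, 6 to 18 for MP over MC, 15 to 29 for MP over ML, 0 for the CpG and 0 to 1 for the polyI:C difference of differences. Among the antiviral regions the ranges were 11 to 15 for CpG alone, 2 to 6 for LPS alone, 16 to 22 for polyI:C alone, 0 to 2 for TNF alone, 4 to 13 for CL over ML, 10 to 13 for PL over ML, 5 to 13 for CT over MT, 16 to 24 for PT over MT, 0 to 2 for CL over PL, 10 to 17 for CT over PT, 3 to 10 for MP over MC, 13 to 20 for MP over ML, 0 for the CpG and 0 to 1 for the polyI:C difference of differences. With the replicate number as a block, all TRIM calls numbered 45 for MC over MM, 30 for ML over MM, 41 for MP over MM, 12 for MT over MM, 28 for CL over ML, 40 for PL over ML, 26 for CT over MT, 43 for PT over MT, 11 for CL over PL, 44 for CT over PT, 13 for MP over MC and 24 for MP over ML. Correlations of same-numbered deviations ran from -0.358 to 0.242. The 10 kb window and the nearer gene end moved no count by over 1.5 times. Few reads limit the precision of low regions.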
